A study of Homo sapiens with 15 samples.

Results

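The 4 human HOX clusters were described by the peaks that start inside them, in lists of WDR5, wild-type MYC and mutant MYC binding sites. The windows on build hg19 were chr7:27130000-27250000 for HOXA, chr17:46600000-46810000 for HOXB, chr12:54330000-54450000 for HOXC and chr2:176950000-177055000 for HOXD, 555 kb in all. They held 68 of the 17171 WDR5 peaks, 3 of the 2527 peaks of wild-type MYC (WT-MYC) and 0 of the 690 peaks of the WDR5-binding mutant (WBM-MYC). The member list names 38 HOX genes.

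Binding was mapped by chromatin immunoprecipitation and sequencing (ChIP-seq) in HEK293, a human embryonic kidney cell line. Cells transduced with a retrovirus expressed WT-MYC or WBM-MYC, both with a FLAG tag, or carried the empty vector (vec), and M2 agarose, which binds the tag, was used for precipitation. Untransduced cells were precipitated with a WDR5 antibody or with rabbit IgG, so WDR5 sites come from cells without tagged MYC and tagged MYC sites from transduced cells, which keep their own MYC. Each of the 5 groups had 3 independent biological replicates, but 1 list of peak positions stands for each of WDR5, WT-MYC and WBM-MYC, without scores or read counts. No spread between replicates can therefore be given, depth is unknown, and every interval below covers counting error over peaks only. Neighbouring peaks are not independent, so these intervals are too narrow. Peaks of the vector and IgG libraries were not analysed here, and no expression values were at hand to check the cell line's markers or HOX expression.

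HOX genes encode homeodomain transcription factors that set position along the body axis in the embryo. They lie in tight clusters in which gene order follows the order of expression along that axis. WDR5 is a shared subunit of the MLL and SET1 histone H3 lysine 4 methyltransferase complexes, and HOX genes are classical targets of MLL. MYC, with its partner MAX, binds the E-box CACGTG and related sequences near promoters of growth genes.

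In the RefSeq gene table (assembly GRCh38.p14), all 38 genes were found, and their order was read from it. HOXA runs upward in coordinate from HOXA2, HOXA3, HOXA4, HOXA5, HOXA6, HOXA7, HOXA9, HOXA10 and HOXA11 to HOXA13. HOXB runs from HOXB1, HOXB2, HOXB3, HOXB4, HOXB5, HOXB6, HOXB7, HOXB8 and HOXB9 to HOXB13. HOXC and HOXD run the other way, from HOXC13, HOXC12, HOXC11, HOXC10, HOXC9, HOXC8, HOXC6 and HOXC5 to HOXC4, and from HOXD13, HOXD12, HOXD11, HOXD10, HOXD9, HOXD8, HOXD4 and HOXD3 to HOXD1. The lower-coordinate end of the HOXA and HOXB windows is thus the anterior end, with low gene numbers, and that of the HOXC and HOXD windows the posterior end. The table is of another build than the peaks, so no peak was tied to a single gene.

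The E-box was looked for in RefSeq promoters (GRCh38.p14), 250 bases before to 50 after a gene's start. The motif CACGTG is its own reverse complement, so 1 search covers both strands. Promoters were at hand for 20 of the 38 genes, in 27 entries, of which HOXA3 alone has 7. An E-box was found in 9 of these 20 genes (45%), against 2396 of 27305 genes in the whole promoter table (8.77%). By entry the shares were 9 of 27 (33.3%) and 7.26%. Of the genes with promoters at hand, HOXA had it in 4 of 9 and HOXD in 5 of 8, HOXB in 0 of 1 and HOXC in 0 of 2. The 27 entries held 26 distinct sequences. The HOXC pair, HOXC4 and HOXC5, had equal GC content (51.7%) and may be 1 sequence counted for both genes. Median GC content was close, 58% in HOX entries and 58.7% in all entries, while the median number of CG pairs was 22 against 14. Below are the 8 matches that lie wholly before the start, shown to let the E-boxes be compared, each with 30 bases on both sides, 5′ to 3′ on the gene's strand and with the E-box in capitals. The ninth, in HOXA7, runs across the start and is not printed.
HOXA3 (chr7:27118373-27118438, minus strand): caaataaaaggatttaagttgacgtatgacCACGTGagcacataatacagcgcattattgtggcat
HOXA4 (chr7:27130922-27130987, minus strand): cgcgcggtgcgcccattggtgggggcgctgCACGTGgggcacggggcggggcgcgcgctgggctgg
HOXA9 (chr7:27165573-27165638, minus strand): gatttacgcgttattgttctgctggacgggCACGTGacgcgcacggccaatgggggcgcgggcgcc
HOXD13 (chr2:176092560-176092625, plus strand): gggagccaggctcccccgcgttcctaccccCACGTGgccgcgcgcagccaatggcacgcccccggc
HOXD11 (chr2:176107160-176107225, plus strand): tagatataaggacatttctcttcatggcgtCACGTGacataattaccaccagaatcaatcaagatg
HOXD10 (chr2:176116642-176116707, plus strand): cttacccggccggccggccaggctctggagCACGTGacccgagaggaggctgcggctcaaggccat
HOXD3 (chr2:176157230-176157295, plus strand): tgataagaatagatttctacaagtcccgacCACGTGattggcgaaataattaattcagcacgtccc
HOXD1 (chr2:176188585-176188650, plus strand): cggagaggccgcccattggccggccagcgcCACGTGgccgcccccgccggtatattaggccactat

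These 8 coordinates are GRCh38.p14 and cannot be set beside the hg19 peak positions. The E-boxes began between 200 bases (HOXA4) and 47 bases (HOXD3) before the start. A match of letters is a description of the sequence and not a binding site. For HOXA5, HOXD9, 9 HOXB genes and 7 HOXC genes no promoter was examined.

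WDR5 peaks were densely packed in all 4 clusters. HOXA held 22 peaks in 120 kb, or 18.3 per 100 kb (exact Poisson 95% interval 11.5 to 27.8). HOXD held 13 in 105 kb, or 12.4 per 100 kb (6.59 to 21.2), and HOXC 14 in 120 kb, or 11.7 per 100 kb (6.38 to 19.6). HOXB held 19 in 210 kb, or 9.05 per 100 kb (5.45 to 14.1). Of the 6 pairs of windows, 1 had a density ratio whose exact 95% interval did not include 1, HOXA against HOXB (2.03, interval 1.05 to 3.96), and the intervals are not adjusted for the number of pairs.

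**Figure D1:**
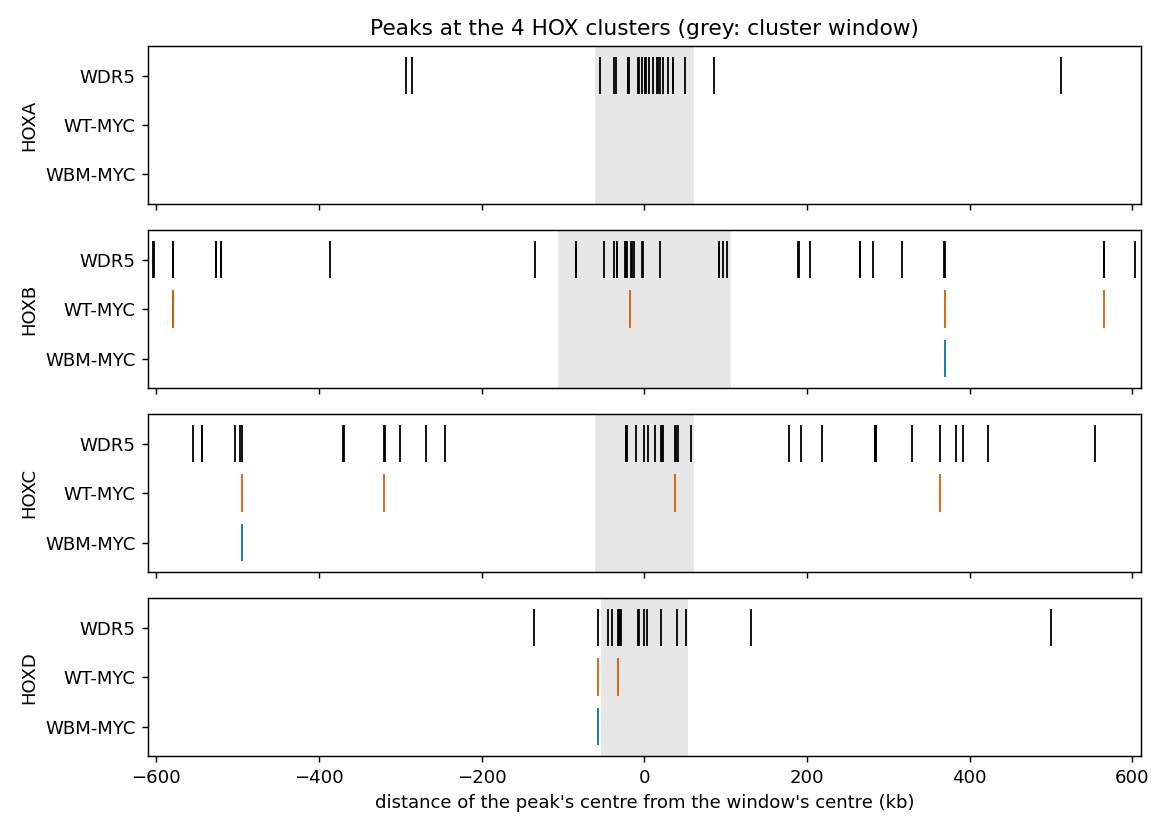
Peaks of the 3 lists (rows) at each HOX cluster (panels), as vertical lines at the distance of the peak's centre from the window's centre in kb, with the window in grey. WDR5 peaks crowd inside the grey windows, with 4 peaks outside at HOXA and at HOXD, and 1 WT-MYC peak lies in each of the HOXB, HOXC and HOXD windows.

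Around HOXA and HOXD the surrounding sequence was almost empty of WDR5 peaks. Each had 2 peaks in the 500 kb below the window and 2 in the 500 kb above it, or 0.4 per 100 kb (0.109 to 1.02). The windows were 45.8 times (HOXA, exact conditional 95% interval 15.6 to 183) and 31.0 times (HOXD, 9.56 to 130) as dense as their flanks. These ratios rest on 4 flank peaks each, so their size is known only within wide limits.

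The flanks of HOXB and HOXC held more WDR5 peaks, and the contrast was smaller. HOXB had 10 peaks below and 12 above, 2.2 per 100 kb, and a ratio of 4.11 (2.11 to 7.96). HOXC had 13 on each side, 2.6 per 100 kb, and a ratio of 4.49 (2.17 to 8.91). Among the first 50% of lines of the WDR5 list, HOXB kept 3 window and 9 flank peaks, a ratio of 1.59 (0.276 to 6.36) that no longer stood apart from 1. In that part of the list HOXC, with 4 window and 9 flank peaks, had a ratio of 3.70 (0.833 to 13.3), whose interval also includes 1. HOXA with 4 and 1 peaks (33.3, 3.30 to 1642) and HOXD with 5 and 4 (11.9, 2.56 to 59.995) stayed above it. The rest of each chromosome held 0.522 WDR5 peaks per 100 kb on chromosome 7, 1.41 on 17, 0.648 on 12 and 0.471 on 2.

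**Figure D2:**
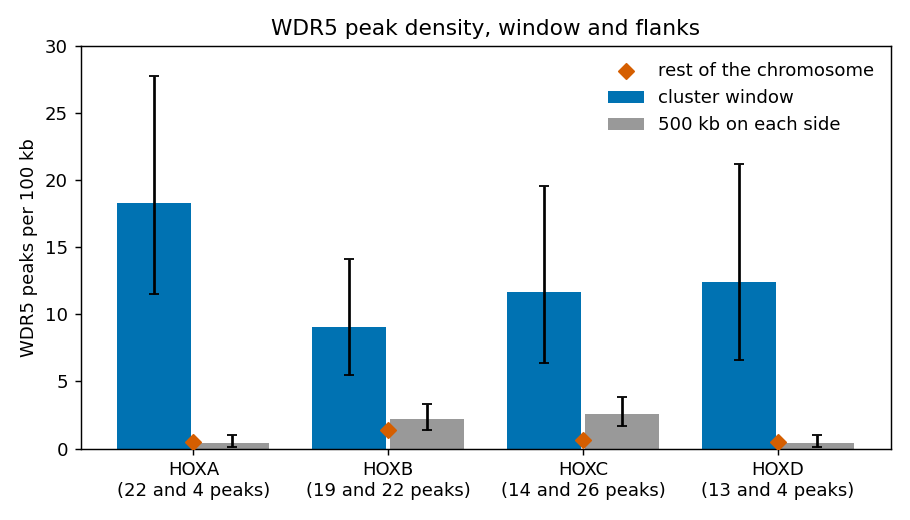
WDR5 peaks per 100 kb (vertical axis, from 0) in each HOX window (blue bars), in the 500 kb on each side (grey bars) and in the rest of the chromosome (diamonds), with exact Poisson 95% intervals as error bars. HOXA is highest at 18.3, and the flanks of HOXA and HOXD lie at 0.4.

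Few other stretches of the genome held as many WDR5 peaks. The genome between the first and the last WDR5 peak of each chromosome was tiled at the length of each window, HOX windows left out. As many as the 22 peaks of HOXA were found in 0 of 24358 tiles of 120 kb (0.00%), of which the fullest held 16. As many as the 19 of HOXB were found in 2 of 13922 tiles of 210 kb (0.0144%), as many as the 14 of HOXC in 4 of 24358 (0.0164%) and as many as the 13 of HOXD in 5 of 27831 tiles of 105 kb (0.0180%). Many tiles were empty, 67.3% of those of 120 kb.

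A fixed grid can cut a dense stretch in 2, so stretches of the same lengths that began at any other WDR5 peak were counted too. For HOXA, 0 stretches outside the HOX windows reached 22 peaks. The fullest 120 kb elsewhere, at chr19:1172971-1275913, held 18. For the lengths of HOXB, HOXC and HOXD there were 11, 11 and 12 separate stretches at least as full, led for 210 kb by chr1:155098598-155294551 with 26 peaks. HOXB, HOXC and HOXD therefore had dense counterparts elsewhere in the list.

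**Figure D3:**
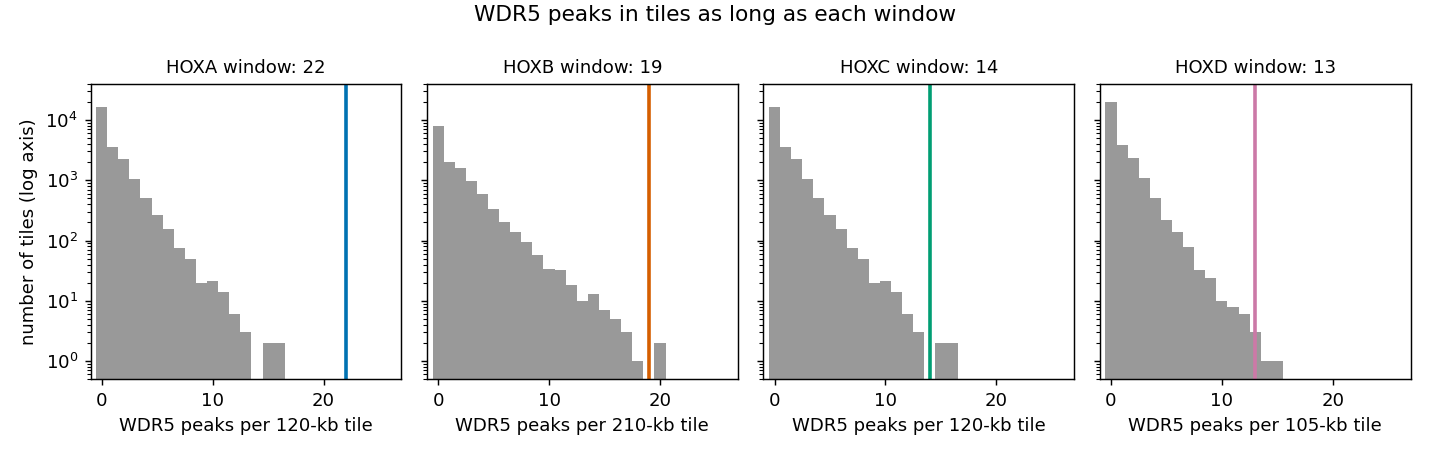
Number of tiles (log axis) by the WDR5 peaks they hold, for tiles as long as each HOX window, with the count of the window itself as a coloured line. The HOXA line at 22 lies beyond every tile, and the lines of the other 3 windows lie where 2 to 5 tiles are as full.

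Inside the clusters WDR5 peaks followed each other at short distances. The median distance between the starts of neighbouring peaks was 4.02 kb over the 64 pairs of neighbours in the windows, against 43.7 kb over the 17084 other pairs in the list. It was 3.01 kb in HOXA, 4.02 kb in HOXB, 4.78 kb in HOXC and 5.24 kb in HOXD. Listed peaks partly overlapped, and merging left 62 separate regions, or 51 sites when peaks within 1 kb were joined. A WDR5 peak of the windows had a median of 12 other WDR5 peaks within 50 kb on either side, from 3 to 20, against a median of 1 for all other WDR5 peaks. Merged peaks covered 8.10% of the HOXA window, 4.76% of HOXD, 4.24% of HOXC and 3.29% of HOXB.

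The placement of peaks within each window is described below by bins, intervals and sides, and whether it departs from an even scatter was not tested. In HOXA, 10 of 12 bins of 10 kb held a peak, and the fullest held 4. The longest interval between starts there was 17.4 kb, near the anterior end, between the peaks starting at 27135672 and 27153107. HOXA had 10 peaks on the anterior side of the window's midpoint and 12 on the posterior side.

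HOXB was split by a long interval without a peak. From its lower, anterior edge 15 peaks lay in the first 130 kb (11.5 per 100 kb), with 5 of them between 80 and 90 kb. No WDR5 peak started from 130 to 190 kb, and 4 lay in the last 20 kb. The interval ran from the peak starting at 46723801 to that starting at 46796770, 73.0 kb. In the gene order, HOXB13 is the last gene at that far end.

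HOXC had no WDR5 peak in its first 37.2 kb, at the posterior end, and its fullest bins, with 3 peaks each, lay from 30 to 40 kb and from 80 to 90 kb. It had 5 peaks on the lower, posterior side of the midpoint and 9 on the other. HOXD had 9 peaks on the lower, posterior side and 4 on the anterior side, and its fullest bin of 4 lay from 20 to 30 kb. Its longest interval, 21.0 kb, followed that bin. HOXB had 14 peaks on the lower, anterior side of its midpoint and 5 on the posterior side. These counts are small and were not tested, so a lean of peaks to either end was not shown.

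Near the edges of the windows, the outermost WDR5 peaks inside lay between 1.90 kb (upper edge of HOXD) and 37.2 kb (lower edge of HOXC) from the edge. The nearest ones outside lay 5.01 kb below HOXD, 24.9 kb above HOXA and 30.2 to 226 kb from the other edges. The peak below HOXD (chr2:176944995-176945628) stood at line 1288 and overlapped both a WT-MYC and a WBM-MYC peak. It starts outside the window and is not counted in it.

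The WDR5 list is not sorted by position, and no source used here states how it is ordered. Lines are therefore given as file positions and not as strength. The peaks of the HOX windows stood late in the list, at a median line of 12062.5 (70.2% of the list), against 8568 for the other WDR5 peaks. The earliest stood at line 3323. Of the 68, 0 were in the first decile (10% of the lines), 1 was in the first 20% (1.47%, Clopper-Pearson 95% interval 0.0372 to 7.92%) and 52 stood in the last 50% (76.5%, 64.6 to 85.9%).

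In each cluster the median line was later than the 8568 of the other WDR5 peaks. The share in the last 50% of the list was 81.8% in HOXA (59.7 to 94.8%) and 84.2% in HOXB (60.4 to 96.6%), against 49.9% of the other WDR5 peaks. In HOXC (71.4%, 41.9 to 91.6%) and HOXD (61.5%, 31.6 to 86.1%) the interval includes that value. HOXA peaks ranged from line 5167 to 17024 with a median of 13889.5, and HOXB peaks from 3323 to 16121 with a median of 13440. HOXD peaks ranged from 5197 to 14263 with a median of 12136, and HOXC peaks, with the earliest median of 10563, from 5637 to 16608. The 4 ranges overlap over most of their length. Flank peaks had a median line of 12086.5 at HOXA, 9678.5 at HOXB, 10882 at HOXC and 2014.5 at HOXD. The median was thus earlier in the window than in the flanks at HOXC, and later at the other 3 clusters.

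**Figure D4:**
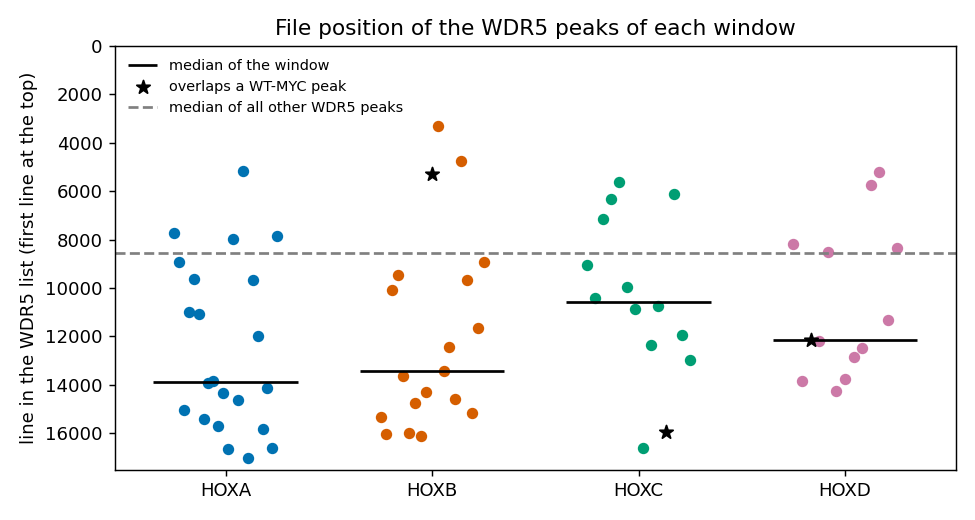
Line of each WDR5 peak in the list (vertical axis, first line at the top) for the 4 HOX windows, each point a peak in order of position, with window medians as bars, the median of all other WDR5 peaks as a dashed line and peaks on WT-MYC as stars. All 4 medians lie below the dashed line at 8568.

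In HOXB the first 3 WDR5 peaks of the list were chr17:46689197-46689782 at line 3323, chr17:46723801-46724379 at line 4749 and chr17:46687789-46688184 at line 5297. In HOXA they were chr7:27204865-27205340 at line 5167, chr7:27135672-27136028 at line 7730 and chr7:27239780-27240097 at line 7864, of which the latter pair are the outermost peaks of the window. In HOXD they were chr2:177022377-177022770 at line 5197, chr2:177005346-177005677 at line 5743 and chr2:176957851-176958391 at line 8197. In HOXC they were chr12:54389267-54389695 at line 5637, chr12:54429231-54429566 at line 6101 and chr12:54379870-54380243 at line 6337.

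Among the WDR5 peaks of the clusters the narrowest measured 156 bp and the widest 624 bp, and their median was 354.5 bp (exact 95% interval 315 to 471 bp). The other WDR5 peaks had a median of 419 bp, inside that interval, and reached 1704 bp. The medians were 404.5 bp in HOXA, 340 bp in HOXD, 323 bp in HOXC and 301 bp in HOXB. The widest peaks of each window measured 624 bp, the commonest width of the whole list. That width was found in 17 of the 68 peaks (25%, Clopper-Pearson 95% interval 15.3 to 37.0%), an interval that includes the 20.3% of all WDR5 peaks. HOXA had 8 such peaks, HOXB 4, HOXC 3 and HOXD 2. Of these widest peaks, the earliest in the list were chr7:27182771-27183394 in HOXA, chr17:46691540-46692163 in HOXB, chr12:54367172-54367795 in HOXC and chr2:177042584-177043207 in HOXD. Wider peaks numbered 0 of 68 (Clopper-Pearson upper limit 5.28%), against 8.51% of the other WDR5 peaks.

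Tagged wild-type MYC was listed at 3 sites in the clusters, each on a WDR5 peak, and the mutant at none. The mutant's list is also the shorter, with 690 peaks against 2527, so 3 against 0 does not show a difference between the forms. In HOXB the WT-MYC peak chr17:46687559-46688054 shared 266 bp with the WDR5 peak chr17:46687789-46688184, with centres 180 bp apart. In HOXC the WT-MYC peak chr12:54427114-54427609 spanned the whole WDR5 peak chr12:54427212-54427490, with centres 10.5 bp apart. In HOXD the WT-MYC peak chr2:176970020-176970515 likewise spanned the WDR5 peak chr2:176970128-176970432, with centres 12.5 bp apart. Of all WT-MYC peaks 82.9% overlapped a WDR5 peak, and 3 of 3 are too few to be told apart from that share. In the 500 kb on each side of the windows, WT-MYC peaks numbered 0 at HOXA, 4 at HOXB, 3 at HOXC and 1 at HOXD. These flanks are longer than the windows, so the windows were not shown to be poor in WT-MYC peaks for their length.

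All 3 WT-MYC peaks stood late in their list, at lines 1949, 2140 and 2495 of 2527. Their WDR5 partners stood at lines 5297 (HOXB), 15934 (HOXC) and 12136 (HOXD) of 17171. The HOXB site thus joins 1 of the 3 leading WDR5 peaks of its window with a late WT-MYC peak.

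HOXA had no MYC peak of either form in the window or in the 500 kb on each side. Its nearest WT-MYC peaks lay 888 kb below and 3294 kb above, and its nearest WBM-MYC peaks at about the same 2 sites (888 and 3294 kb). For WBM-MYC, the nearest peaks to the other windows lay 4.32 kb below HOXD, at the site already named, 264 kb above HOXB and 435 kb below HOXC. On their other sides they lay 1073, 1199 and 2412 kb away.

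Of the 68 WDR5 peaks in the clusters, 3 overlapped a WT-MYC peak (4.41%, Clopper-Pearson 95% interval 0.919 to 12.4%), against 13.6% of all WDR5 peaks. WBM-MYC was found on 0 of 68 (Clopper-Pearson upper limit 5.28%, or 4.41% when a count of 0 is taken to allow 3 counts), and 3.40% of all WDR5 peaks carried it, so a lower share was not detectable with this number. The interval for WT-MYC lies below 13.6%. It includes 13.6% without the HOXA window (3 of 46, 6.52%, 1.37 to 17.9%) and without the HOXB window (2 of 49, 4.08%, 0.498 to 13.98%). It also includes the share of the other WDR5 peaks when peaks had to share at least 50% of the shorter one (again 4.41% in the clusters, against 11.9%). When MYC peaks within 5 kb were accepted, 11 of 68 had WT-MYC (16.2%, 8.36 to 27.1%), against 17.9% of the other WDR5 peaks, a value inside that interval. All 11 lay near the same 3 WT-MYC peaks. Neighbouring WDR5 peaks started a median of 4.02 kb apart in the windows, against 43.7 kb elsewhere. A reach of 5 kb thus takes in more crowded peaks per MYC peak, so this share cannot compare MYC overlap.

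File position moved with the MYC share. Among the other WDR5 peaks the share with WT-MYC fell from 36.3% in the first decile of the list to 4.69% in the last, and the share with WBM-MYC from 12.6% to 0.937%. Weighted by the deciles in which the HOX peaks stood, the other WDR5 peaks had WT-MYC at 8.14%, equal to 5.54 of 68 peaks, and WBM-MYC at 1.54%, or 1.05 of 68. At equal file position the interval of the HOX peaks (0.919 to 12.4%) includes the value of the others, so a difference in MYC overlap was not shown.

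**Figure D5:**
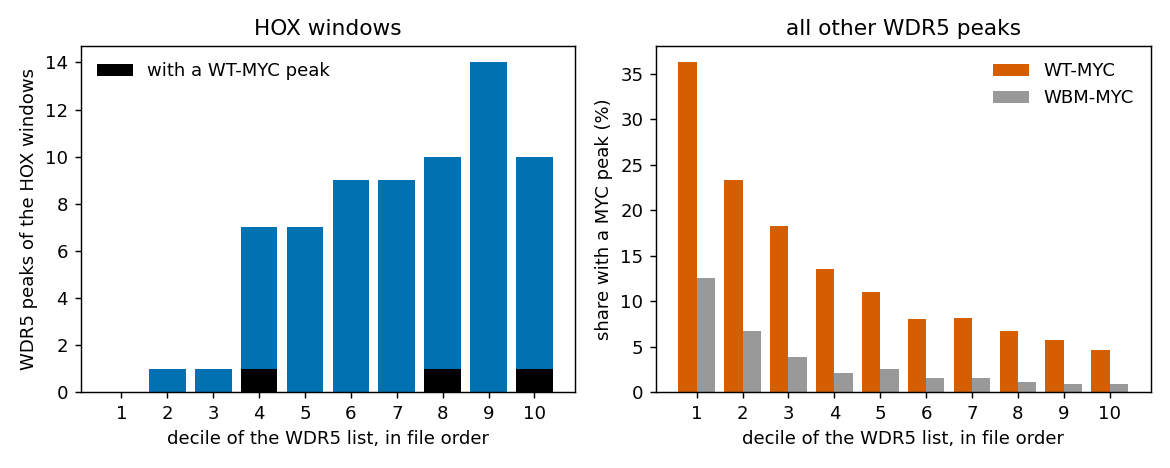
Left, WDR5 peaks of the HOX windows by decile of the WDR5 list (blue), those on WT-MYC in black. Right, share of all other WDR5 peaks with a WT-MYC (orange) or WBM-MYC (grey) peak, in percent, by the same deciles. The HOX peaks number 0 in the first decile and 14 in the ninth, while the WT-MYC share elsewhere falls from 36.3 to 4.69%.

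Other crowded WDR5 peaks served as the nearest comparison, defined, after the values were seen, as the 170 WDR5 peaks outside the windows with at least 10 others within 50 kb. In the clusters 52 of 68 WDR5 peaks met that definition, but the HOX shares given here are over all 68, so the sets are not fully matched in crowding. The 170 peaks overlapped WT-MYC in 15.3% (10.2 to 21.6%), an interval that overlaps that of the HOX peaks (0.919 to 12.4%). In the first 20% of the list were 12.9% of them (8.29 to 18.9%), against 1.47% (0.0372 to 7.92%) of the HOX peaks. The first decile held 5.29% of them (2.45 to 9.81%), against 0 of the HOX peaks (upper limit 5.28%). In the last 50% stood 60% of them (52.2 to 67.4%), against 76.5% (64.6 to 85.9%) of the HOX peaks. In these 2 shares the intervals overlap. The median line of the 170 was 10393.5, between those of the HOX peaks and the whole list, and their median width 437 bp. Wider than 624 bp were 5.88% of the 170 (2.86 to 10.6%), an interval that overlaps that of the HOX peaks (0, upper limit 5.28%). Where intervals overlap, the shares are not thereby shown to be alike. The values of the 170 themselves (15.3%, 5.29%, 60% and 5.88%) lie outside the HOX intervals, but carry counting error of their own. These differences were not tested.

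Whole stretches as full as a HOX window were compared in the same way. Of the 11 at the length of HOXB 9 had at least 1 WDR5 peak with WT-MYC, of the 11 at the length of HOXC all 11, and of the 12 at the length of HOXD 11. The HOXB, HOXC and HOXD windows each had 1 such WDR5 peak, so they met the same condition, which does not compare shares. The fullest stretch was the same at the lengths of HOXC and HOXD (chr19:1172971-1275913), so these counts are not independent of each other. The earliest WDR5 line was earlier than in the HOX window in 10 of 11, 10 of 11 and 10 of 12 of these stretches. For HOXA this could not be compared, since 0 stretches were as full. In the grid tiles as full as the window, WT-MYC lay on 4 of 40 WDR5 peaks (10%) at the length of HOXB. It lay on 15 of 62 (24.2%) at that of HOXC and on 13 of 68 (19.1%) at that of HOXD. The shares in the windows were lower, at 5.26%, 7.14% and 7.69%. Their Clopper-Pearson 95% intervals, resting on 1 such peak each, include the tile shares. These differences were not tested.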

How the data were processed

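The authors deposited 1 peak list each for WT-MYC, WBM-MYC and WDR5, with chromosome, start and end of each peak. Bowtie 0.12.7, CASAVA 1.8.2 and build hg19 are named in the submitters' processing notes. How peaks were called, against which control and from pooled or single replicates is not given in the sources used here. Starts were taken as 0-based and are printed 1-based.

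A peak belonged to a window by its start. Overlap meant at least 1 bp. Shares have Clopper-Pearson, medians order-statistic, densities exact Poisson and density ratios exact conditional intervals, all 95%, and no p-value was computed. Named peaks are the first 3 by line and the widest of each window (of ties, the earliest), and the MYC peaks inside or nearest. Members and lists were chosen with earlier results of these data known. The free stretches, the crowded peaks, the shares of other peaks at other overlap rules, the weighting by decile, and the left-out windows were added after the data were seen. Overlap, merging and interval code was tested on simulated data. Python 3.11.15, pandas 2.3.3 and scipy 1.17.1 were used.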

Additional observations from a re-analysis of the deposited data

How the results depend on the processing

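Of 80 recomputed values, 75 stayed within the 95% interval of the reported value. Direction was checked only for the 36 density ratios and 5 median lines, of which 0 changed it. The WBM-MYC share of 0 could only stay 0 when a window was left out, lists were shortened or a larger overlap was asked. Among densities, the HOXB ratio moved to 1.59 in the first 50% of the list. The ratio ranged from 28.2 to 58.3 in HOXA, 1.59 to 5.65 in HOXB, 3.70 to 5.83 in HOXC and 11.9 to 31.0 in HOXD. The share with WT-MYC moved to 16.2% within 5 kb and to 0% (0 of 16) in the first 50% of both lists. That 0% was fixed in advance, since all 3 WT-MYC peaks of the windows stand in the last 50% of their list. Against only tiles with a WDR5 peak, the share as full as the window moved to 0.0502% for HOXC and 0.0599% for HOXD, since fewer tiles were counted. Median line stayed between 68.8 and 76.7% of the list, median width between 315 and 384 bp and median spacing between 3.86 and 4.32 kb. No paired analysis was possible because 1 list stands for each group, and no replicate could be left out.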
